A study of Mus musculus with 8 samples.

Results

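The genes described here are 38 mouse genes of the antioxidant defence and of the NRF2 pathway, chosen by symbol from the rows of the deposited contrast of 2 fractions of old haematopoietic stem cells (HSCs). All 38 symbols were found among the 19909 genes of the deposited tables, and all 38 carried an adjusted p in each of the 3 contrasts. They comprise 3 genes of the sensor and its transcription factors, 3 haem oxygenases and quinone reductases, 4 genes of glutathione synthesis and recycling, 5 glutathione peroxidases, 4 glutathione transferases, 3 glutaredoxins, 7 peroxiredoxins and sulfiredoxin, 5 thioredoxins and their reductases, 3 genes for dismutases and catalase, and Park7.

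Bulk RNA sequencing had been carried out on HSCs purified from the bone marrow of mice at steady state. All mice were homozygous for GFP-LC3 (genotype Gfplc3/Gfplc3), a fusion of green fluorescent protein to LC3, which coats autophagosomes and is broken down along with their cargo. The young group held 2 libraries of unfractionated HSCs from mice of 8 to 12 weeks. The old groups came from 3 mice of over 24 months: AThi ("autophagy high") is the 33% of HSCs with the lowest GFP signal and ATlo ("autophagy low") the 33% with the highest, both sorted from the same mouse. About 10000 HSCs went into each library, the RNA integrity number was over 9.0, and no library of young HSCs was sorted by GFP. In each contrast against young, age and gate therefore cannot be told apart. The reporter reads LC3 protein, so AThi and ATlo name GFP fractions and not a measured rate of autophagy.

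NRF2, the protein of Nfe2l2, is a transcription factor that is held by KEAP1 for degradation. When oxidants or electrophiles modify cysteines of KEAP1, NRF2 accumulates, pairs with small MAF proteins and binds antioxidant response elements near the genes of detoxifying and reducing enzymes. Peroxides are removed by 2 thiol systems that both draw on NADPH: peroxiredoxins, which thioredoxin and thioredoxin reductase restore, and glutathione peroxidases, which glutathione and glutathione reductase restore. Superoxide is first converted to hydrogen peroxide by the dismutases, and catalase removes part of that peroxide. HSCs are known for low oxidant levels and for losing function when these rise, and autophagy meets the NRF2 pathway at p62, an autophagy receptor that binds KEAP1.

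Recovered depth ran from 33960216 reads (AThi O10) to 61341946 reads (ATlo O12), with 27.1% to 36.1% of reads on ribosomal RNA genes. Levels are given as normalized counts, the read count divided by 1 size factor per library. Libraries are named by the tags of the deposited columns: D11 and D12 for young, and O10, O11 and O12 for old. The labels do not tie the tags to mice, and AThi and ATlo libraries with the same tag were taken to come from the same mouse. All 10 HSC markers were present, with a summed level of 84846 to 139861 normalized counts over the 8 libraries. The 3 libraries whose tag ends in 12 stood apart: the B cell gene Ighm was at 8395, 20937 and 7314 normalized counts in young D12, AThi O12 and ATlo O12 against 25.3 to 63.5 in the other 5. The summed B cell markers were at 10767, 23877 and 10117 there, against 654 to 992. The single genes Hbb-bs (haemoglobin) and Csf1r (monocyte) were also higher there than in the other 5, but the sums of their marker lists did not set these libraries apart. The erythroid sum was lowest in AThi O12 (26727), and the monocyte sum was lower in ATlo O12 (9970) than in young D11 (10530). Young D11 stood apart by sex-linked genes, with 97743 normalized counts of Xist and 4.16 of the Y-linked Ddx3y, which the other 7 libraries held at 1918 to 3219. Among those 7, Xist was at 3869, 5810 and 2747 in young D12, AThi O12 and ATlo O12, against 32.5 to 171 in the other 4. In bulk samples, fewer cells of a type and less RNA per cell cannot be told apart.

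The antioxidant response element was looked for in RefSeq promoter windows (250 bases before to 50 after a gene's start, build GRCm38.p6), because it is the DNA element through which NRF2 is known to act. Windows were found for 34 of the 38 genes, and the entries for Hmox1, Gclc, Gsr and Prdx6 were not matched. The core TGACNNNGC, searched on both strands, was found in windows of 7 of the 34 genes (20.6%), beside 16.8% of the 11432 genes of the deposited tables with a window and 14.0% of all 27025 genes with one. A gene was counted if any of its windows held the core. Counted by window, 7 of the 51 windows of members held it (13.7%), beside 14.2% of the 14526 windows of genes in the deposited tables. A match is a description of letters and not of binding. The 7 matches are printed 5′ to 3′ on the minus strand with 10 flanking bases on each side, and capitals mark the core.
Gclm, chr3:122245413-122245441: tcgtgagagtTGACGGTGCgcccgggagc
Mgst1, chr6:138140461-138140489: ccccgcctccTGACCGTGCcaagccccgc
Nfe2l2, chr2:75704885-75704913: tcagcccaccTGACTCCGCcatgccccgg
Prdx1, chr4:116685456-116685484: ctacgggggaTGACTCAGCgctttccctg
Sod1, chr16:90220696-90220724: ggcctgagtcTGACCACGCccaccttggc
Srxn1, chr2:152105542-152105570: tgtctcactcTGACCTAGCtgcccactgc
Txnrd1, chr10:82859104-82859132: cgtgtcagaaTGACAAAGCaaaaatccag
The Srxn1 match lies 28 bases after the start of its window's transcript and the other 6 lie 56 to 240 bases before it. Among the members that had a window and were called in a contrast, Prdx1 held the core and Txn1, Prdx4, Gstm1, Gpx3, Gpx8 and Txn2 did not.

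For 4 members on which the results turn, the part of the upstream window outside the annotated gene is shown, 5′ to 3′ on the gene's strand, with the core in capitals where it occurs. Txn1 and Prdx1 were lower in AThi than in ATlo, Gstm1 was higher, and Gpx8 differed between old and young. The stretches are Txn1 on the minus strand (chr4:57956412-57956661, 64.0% G and C), Prdx1 on the plus strand (chr4:116685349-116685543, 63.1%), Gstm1 on the minus strand (chr3:108017974-108018223, 57.6%) and Gpx8 on the minus strand (chr13:113046411-113046638, 43.4%).
Txn1: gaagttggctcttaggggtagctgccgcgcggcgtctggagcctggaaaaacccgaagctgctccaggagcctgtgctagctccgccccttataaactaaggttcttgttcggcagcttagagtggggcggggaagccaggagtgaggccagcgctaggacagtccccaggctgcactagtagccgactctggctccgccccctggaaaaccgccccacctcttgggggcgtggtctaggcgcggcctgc
Prdx1: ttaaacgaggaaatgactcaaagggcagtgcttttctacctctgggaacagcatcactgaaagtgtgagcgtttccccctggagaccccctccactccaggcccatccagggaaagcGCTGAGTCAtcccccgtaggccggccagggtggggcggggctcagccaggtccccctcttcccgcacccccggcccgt
Gstm1: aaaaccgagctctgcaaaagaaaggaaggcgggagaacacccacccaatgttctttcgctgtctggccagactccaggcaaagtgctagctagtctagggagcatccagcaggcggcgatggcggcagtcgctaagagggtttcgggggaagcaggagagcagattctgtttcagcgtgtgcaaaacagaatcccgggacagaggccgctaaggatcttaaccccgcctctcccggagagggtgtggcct
Gpx8: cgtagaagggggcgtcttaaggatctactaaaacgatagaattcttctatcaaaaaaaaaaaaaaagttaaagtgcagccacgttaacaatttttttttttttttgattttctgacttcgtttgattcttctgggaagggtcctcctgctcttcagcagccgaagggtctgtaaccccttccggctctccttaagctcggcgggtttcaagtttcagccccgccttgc
In the Prdx1 stretch the capitals are the reverse complement of the core printed above for Prdx1. Of the 4, Gpx8 had the lowest share of G and C.

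The members spanned a wide range of levels. Normalized counts per kilobase of exon allow a rough comparison between genes. The length takes in every annotated exon of a gene, used or not, so genes with long or unused exons are understated. Values were highest for Gpx1 (12246, a level above 99.3% of genes), the cytosolic peroxidase that uses glutathione, and for Txn1 (6605), the cytosolic thioredoxin. Prdx1 (3324), Gstm1 (2484), Cat (2352) and Sod1 (2245) followed, and Nfe2l2 stood at 1696. At the low end were Gss (112), Txnrd2 (82.3) and Gpx3 (56.5), the last above 32.2% of genes. Keap1 stood at 315 per kilobase, below Nfe2l2. Gpx8, Hmox1 and Gpx3 spread most widely between libraries on this scale.

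**Figure D1:**
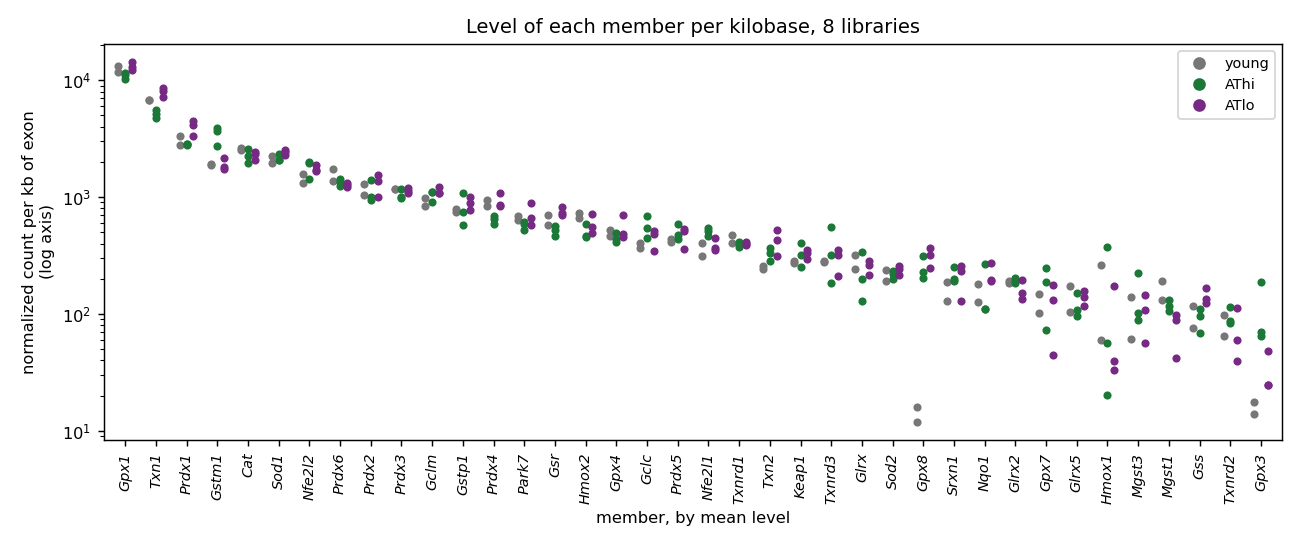
Normalized counts per kilobase of exon (log axis) of the 38 members in the 8 libraries, ordered by mean level and coloured by group; each point is 1 library. Gpx1 and Txn1 stand highest and Gpx3 lowest, and the 2 young points of Gpx8 lie far below its 6 old points.

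The first comparison asks which of these genes differed between the 2 GFP fractions of the same old HSC population. The cytosolic thioredoxin gene Txn1, the peroxiredoxin genes Prdx1 and Prdx4 and the glutathione reductase gene Gsr were lower in AThi than in ATlo, and the glutathione transferase gene Gstm1 and the extracellular peroxidase gene Gpx3 were higher. In the authors' deposited table, 6 of 38 members (15.8%) were called at an adjusted p below 0.05 (DESeq2 Wald test), 2 higher and 4 lower, beside 7.9% of the 17908 genes tested (3.47% higher and 4.43% lower). The median log2 fold change of the members in the authors' deposited table was -0.11, beside 0.02 over all genes tested, and 20 of the 38 lay within 0.3 of 0. The 3 AThi and 3 ATlo libraries did not overlap for 10 members (26.3%), beside 22.3% of genes. All 6 called members were among these 10. Their same direction in 3 of 3 mice follows from that and is no further support. With recovered reads, edgeR's quasi-likelihood test called 2 of them, Txn1 and Gstm1 (5.26%), beside 1.41% of genes. The same 2 were called in a DESeq2 refit without the 3 libraries tagged 12, beside 4.51% of genes, and by edgeR with the mouse as a block, beside 1.59%. With the mouse as a block DESeq2 called 6 members, beside 10.6% of genes.

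**Figure D2:**
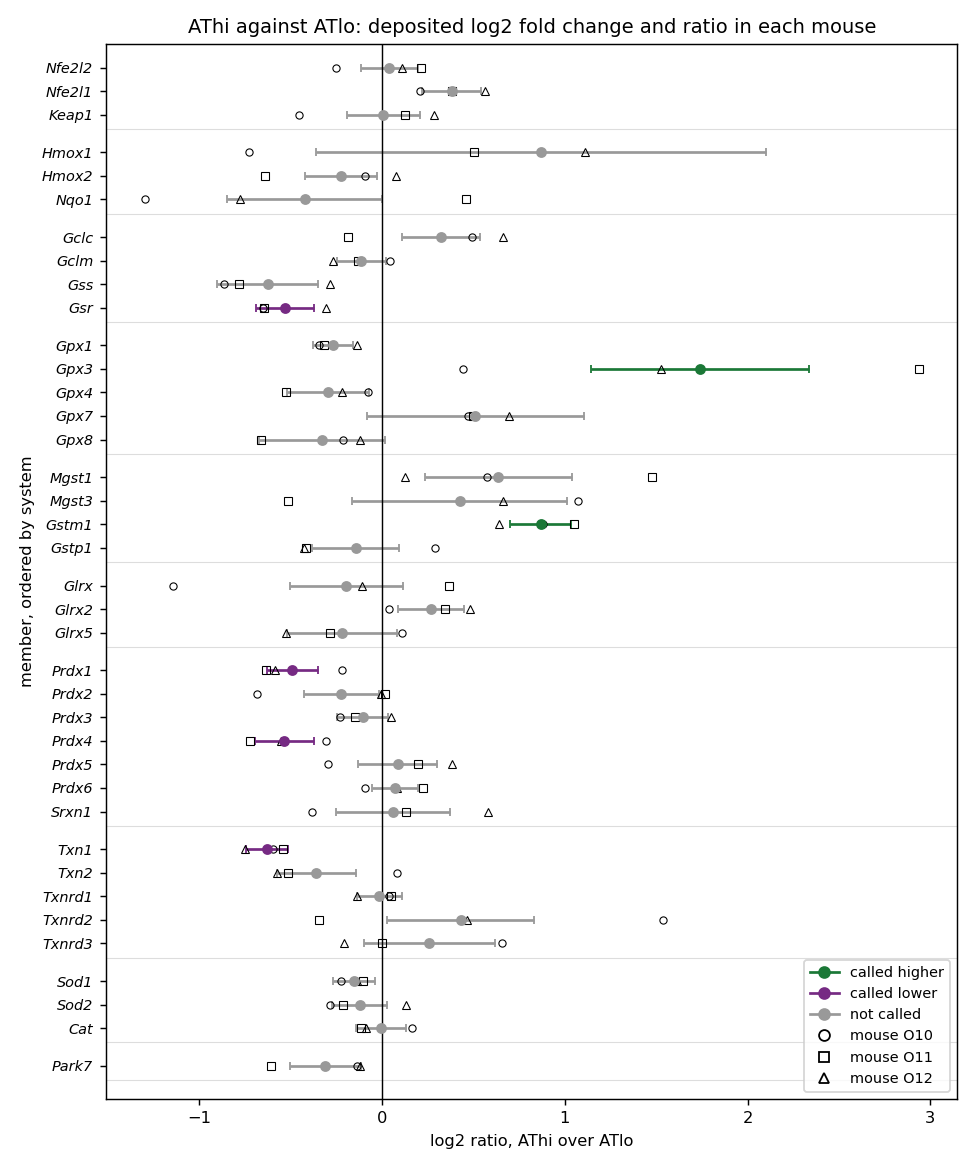
Log2 ratio of AThi over ATlo for the 38 members by system, with the authors' deposited log2 fold change as a filled point with its standard error and the ratio in each of the 3 old mice as open symbols. Txn1, Prdx1, Prdx4 and Gsr lie left of 0 and Gstm1 and Gpx3 right of 0 in every mouse, while Gpx3 in mouse O11 stands at 2.94.

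Within the thioredoxin system, Txn1 (ENSMUSG00000028367, chr4:57943373-57956411, minus strand), which donates electrons to peroxiredoxins and to ribonucleotide reductase, carried the most firmly called fall. It stood at 7064 and 7075 normalized counts in young, at 5043, 5798 and 5390 in AThi, and at 7623, 8458 and 9080 in ATlo. Each AThi library lay below both young libraries and each ATlo library above them. Group means (± SD, n = 3) were 5410 ± 378 for AThi and 8387 ± 731 for ATlo, and the log2 ratios of the 3 mice were -0.60, -0.54 and -0.75. In the authors' deposited table its log2 fold change was -0.63 ± 0.12 (SE), with an adjusted p of 4.0e-06, and edgeR's quasi-likelihood test gave an adjusted p of 0.027. The fall was called in every alternative run.

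Txn2, the mitochondrial thioredoxin, stood at 1026 and 1079 normalized counts in young, at 1401, 1555 and 1205 in AThi and at 1322, 2221 and 1797 in ATlo. Its fractions overlapped, and the authors' deposited table gave a log2 fold change of -0.36 ± 0.22 (SE) with an adjusted p of 0.37. Txnrd1, the cytosolic reductase that restores thioredoxin, was the steadiest partner, at 2844 and 3331 in young, at 2840, 2929 and 2636 in AThi, and at 2769, 2829 and 2898 in ATlo. Its log2 fold change between fractions in the authors' deposited table was -0.02 ± 0.12 (SE), with a 95% interval of -0.26 to 0.23. The mitochondrial reductase Txnrd2 and the third reductase Txnrd3 were not called (log2 0.43 ± 0.40 and 0.26 ± 0.36 (SE) in the authors' deposited table), and their libraries spread from 173 to 501 and from 523 to 1581 normalized counts. Summed over the 5 genes, the system held 11019 ± 784 normalized counts in AThi against 14146 ± 1096 in ATlo (SD, n = 3 each), beside 12365 ± 292 in young (n = 2), a sum in which Txn1 was the largest term in 8 of 8 libraries.

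Among the peroxiredoxins, the enzymes that break down peroxides with electrons from thioredoxin, Prdx1 and Prdx4 were lower in AThi. Prdx1, a cytosolic member (ENSMUSG00000028691, chr4:116685544-116700822), stood at 8462 and 10171 in young, at 8727, 8726 and 8439 in AThi, and at 10159, 13555 and 12678 in ATlo, in normalized counts. The AThi libraries lay close together (SD 166, n = 3), whereas ATlo O10 was close to the higher young library. The authors' deposited table gave a log2 fold change of -0.49 ± 0.14 (SE) with an adjusted p of 0.0087, and edgeR's adjusted p was 0.10. Without ATlo O11 the adjusted p of a DESeq2 refit was 0.10, and without ATlo O12 it was 0.069. Prdx4, the peroxiredoxin of the endoplasmic reticulum (ENSMUSG00000025289, chrX:155323918-155340754), stood at 1767 and 1977 in young, at 1439, 1372 and 1236 in AThi, and at 1784, 2263 and 1816 in ATlo. Every AThi library lay below every other library. Its log2 fold change in the authors' deposited table was -0.54 ± 0.16 (SE) with an adjusted p of 0.017, and edgeR's adjusted p was 0.12. Leaving out AThi O11, AThi O12 or ATlo O11 gave adjusted p-values of 0.063, 0.091 and 0.16 in the DESeq2 refit. Prdx4 lies on the X chromosome, and young D11, the library with the high Xist level, is a level in the contrasts of Prdx4 against young but not in that between fractions.

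The other 4 peroxiredoxins were not called. Prdx3, the mitochondrial member, ranged from 1450 to 1755 normalized counts over the 8 libraries, and Prdx6, which works with glutathione in place of thioredoxin, from 5840 to 8383. Their log2 fold changes between fractions in the authors' deposited table were -0.11 ± 0.14 and 0.07 ± 0.13 (SE). Prdx2 (2908 to 4673) and Prdx5 (775 to 1260) also had overlapping fractions, at -0.22 ± 0.21 and 0.08 ± 0.22 (SE) in the authors' deposited table. Sulfiredoxin, the product of Srxn1, repairs overoxidized peroxiredoxins. It stood at 0.06 ± 0.31 (SE) in the authors' deposited table, over a range of 365 to 728 normalized counts.

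**Figure D3:**
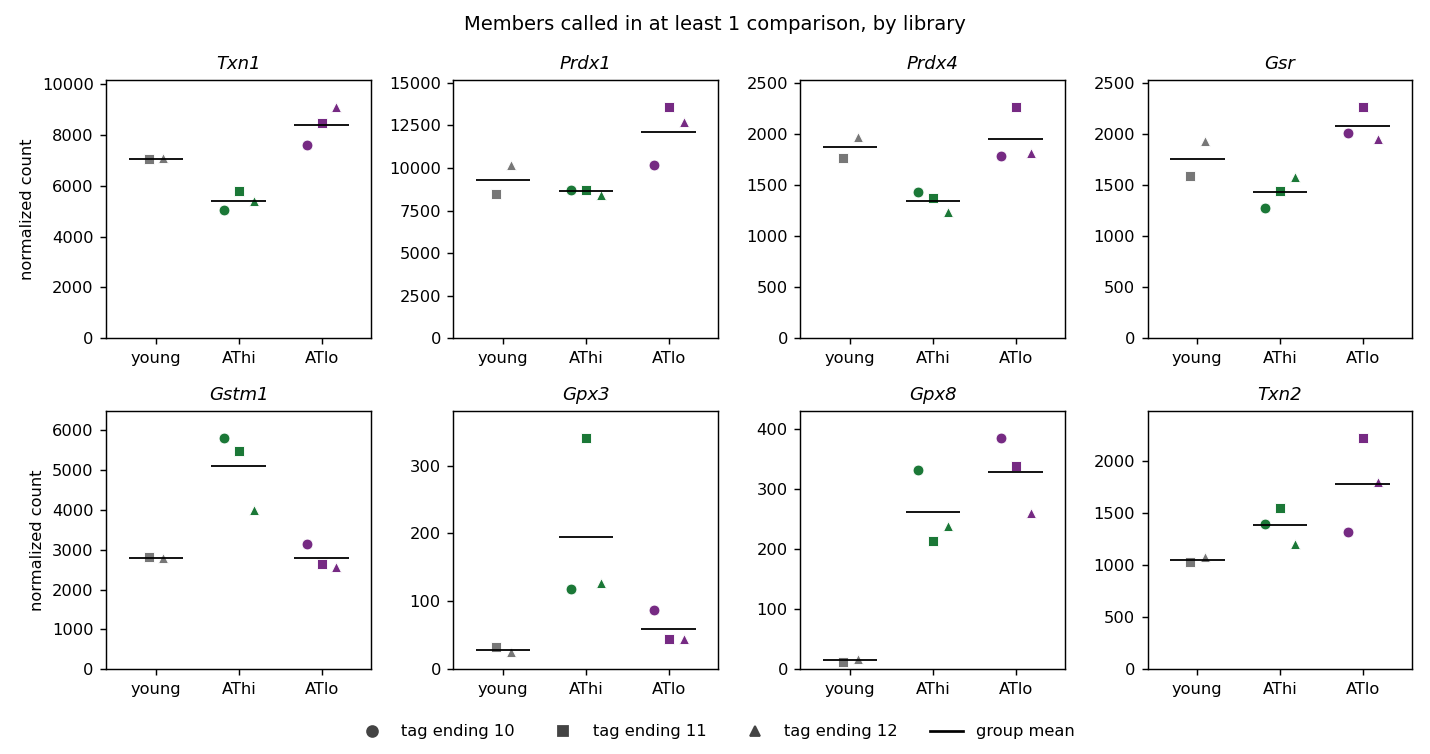
Normalized counts per library (each axis starts at 0) of the 8 members called in at least 1 of the 3 deposited contrasts, with symbols by column tag and a line at each group mean. Txn1, Prdx1, Prdx4 and Gsr are lower in AThi than in ATlo, Gstm1 is higher in AThi than in both other groups, and Gpx8 is near 0 in the 2 young libraries.

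In the glutathione system, Gsr (ENSMUSG00000031584, chr8:33652523-33698163), which uses NADPH to restore glutathione, was lower in AThi. It stood at 1589 and 1925 normalized counts in young, at 1278, 1443 and 1573 in AThi, and at 2009, 2258 and 1948 in ATlo. The AThi libraries lay below all young and ATlo libraries. The log2 fold change in the authors' deposited table was -0.53 ± 0.16 (SE) with an adjusted p of 0.016, and edgeR's adjusted p was 0.12. In the DESeq2 refit the call was lost without AThi O10 (adjusted p 0.11), AThi O11 (0.065), ATlo O10 (0.054) or ATlo O11 (0.14). Gss, which joins glycine to complete glutathione, had non-overlapping fractions too, at 404, 573 and 653 in AThi and 737, 985 and 796 in ATlo, after 449 and 696 in young. The authors' deposited table gave it a log2 fold change of -0.63 ± 0.27 (SE), an adjusted p of 0.16 and no call. The 2 subunits of glutamate-cysteine ligase, the rate-limiting enzyme of glutathione synthesis and a textbook NRF2 target, had estimates of opposite sign and no call. The catalytic subunit Gclc stood at 1513 and 1378 in young, at 2578, 1678 and 2059 in AThi, and at 1832, 1913 and 1301 in ATlo. The modifier subunit Gclm stood at 5273 and 6167, then 7005, 6982 and 5681, then 6797, 7644 and 6853. Their log2 fold changes were 0.32 ± 0.21 and -0.11 ± 0.13 (SE) in the authors' deposited table.

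The glutathione transferase Gstm1 (ENSMUSG00000058135, chr3:108012255-108017973, minus strand), which joins glutathione to electrophiles, was the member most firmly higher in AThi. Its values were 2824 and 2788 normalized counts in young, at 5802, 5475 and 4009 in AThi, and at 3158, 2646 and 2575 in ATlo. The 3 AThi libraries lay above all others, while the ATlo libraries bracketed the young ones. The mice gave log2 ratios of 0.88, 1.05 and 0.64. In the authors' deposited table the log2 fold change was 0.87 ± 0.17 (SE), a fold of 1.82, with an adjusted p of 2.1e-05; edgeR's adjusted p was 0.036, and the rise was called in every alternative run. Gstm1 has close mu-class copies between which the counting could split reads, so the copies were read beside it (chosen after their values were seen). Gstm5, at 0.41 ± 0.20 (SE) in the authors' deposited table, Gstm7 at 0.28 ± 0.41, Gstm3 at 0.71 ± 0.55, Gstm2 at 0.08 ± 0.33 and Gstm4 at 0.01 ± 0.45 were not called between fractions. Gstm6, a scarce copy, had the largest estimate of the copies, 2.56 ± 1.14 (SE) with no adjusted p in the authors' deposited table. It stood at 20.9 to 61.7 normalized counts in AThi, above the other 5 libraries, which held 1.06 to 14.8.

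The remaining transferases were not called. Mgst1, a microsomal transferase, had separate fractions at 266, 235 and 216 normalized counts in AThi and 179, 84 and 197 in ATlo, and in the authors' deposited table a log2 fold change of 0.64 ± 0.40 (SE, adjusted p 0.41). Mgst3 ranged from 62 to 247 over the 8 libraries and Gstp1 from 900 to 1683, with overlapping fractions in both. Summed over the 4 transferases, the mean in normalized counts (± SD) was 6736 ± 1405 for AThi (n = 3), 4440 ± 395 for ATlo (n = 3) and 4427 ± 120 for young (n = 2).

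Of the glutathione peroxidases, Gpx3 (ENSMUSG00000018339, chr11:54902453-54910377), the secreted selenoenzyme of plasma, was called higher in AThi, from low and scattered values. It stood at 32.2 and 25.3 normalized counts in young, at 119, 340 and 128 in AThi, and at 87.2, 44.5 and 44.3 in ATlo. The AThi libraries lay above the ATlo libraries, and AThi O11 stood far above the other 2 of its group. The log2 ratios of the mice were 0.44, 2.94 and 1.53. The authors' deposited table gave a log2 fold change of 1.74 ± 0.60 (SE) with an adjusted p of 0.047. Without AThi O11 the log2 fold change of the DESeq2 refit fell to 1.07, with an adjusted p of 0.43; without AThi O12, ATlo O11 or ATlo O12 the adjusted p was 0.050, 0.18 and 0.19. With the mouse as a block the DESeq2 refit gave an adjusted p of 0.075, and edgeR's adjusted p without the block was 0.18. Of 15 alternative runs, 5 called the Gpx3 rise and 10 did not.

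Gpx1, the most abundant member per kilobase, stood at 19179 and 17117 in young, at 14870, 16569 and 16129 in AThi, and at 18863, 20669 and 17770 in ATlo. Its fractions did not overlap, yet the log2 fold change in the authors' deposited table, -0.27 ± 0.11 (SE), had an adjusted p of 0.11. With the mouse as a block in DESeq2 it was called, at the same log2 fold change and an adjusted p of 0.027. The other 14 of 15 alternative runs did not call it. Gpx4, which reduces lipid peroxides and guards against ferroptosis, stood at 908 and 805 in young, at 752, 847 and 709 in AThi, and at 793, 1218 and 826 in ATlo. Its log2 fold change was -0.30 ± 0.23 (SE) in the authors' deposited table, and ATlo O11 alone stood clear of the other libraries. Gpx7 and Gpx8, peroxidases of the endoplasmic reticulum, were at 0.51 ± 0.59 and -0.33 ± 0.35 (SE) between fractions in the authors' deposited table. The glutaredoxins Glrx, Glrx2 and Glrx5, which use glutathione to reduce protein disulfides or carry iron-sulfur clusters, had overlapping fractions and log2 fold changes from -0.22 to 0.27 in the authors' deposited table.

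No member of the sensor and transcription factor group was called between fractions. Nfe2l2 (ENSMUSG00000015839, chr2:75675513-75704641, minus strand) stood at 5032 and 6008 normalized counts in young, at 5466, 7388 and 7654 in AThi, and at 6499, 6369 and 7102 in ATlo. The fractions overlapped, and the log2 fold change in the authors' deposited table was 0.04 ± 0.15 (SE), with a 95% interval of -0.26 to 0.34. Keap1 stood at 1280 and 1331, then 1196, 1515 and 1915, then 1641, 1390 and 1575, with 0.01 ± 0.20 (SE) in the authors' deposited table. These are transcript levels, and NRF2 is known to be set mainly at the level of the protein. Nfe2l1, which encodes a related factor that drives proteasome genes, stood at 2185 and 1707 in young, at 2793, 2516 and 2950 in AThi, and at 2420, 1932 and 1996 in ATlo. Its 3 AThi libraries lay above the other 5, without a call: the authors' deposited table gave 0.38 ± 0.16 (SE) and an adjusted p of 0.15.

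Nqo1 and Hmox1, textbook NRF2 targets, were also not called. Nqo1, the quinone reductase, stood at 197 and 283 normalized counts in young, at 173, 417 and 173 in AThi, and at 425, 303 and 296 in ATlo. The authors' deposited table gave -0.42 ± 0.42 (SE), and AThi O11 stood well above the other 2 AThi libraries. Hmox1, the inducible enzyme that breaks down haem, stood at 104 and 460 in young, at 35.1, 99.1 and 651 in AThi, and at 58.1, 69.9 and 302 in ATlo. Its highest value in every group was in the library tagged 12, and the groups overlapped. The authors' deposited table gave it a log2 fold change of 0.87 ± 1.23 (SE) between fractions. Among the 38 members Hmox1 was the 1 (2.63%) that lay above all other libraries in the 3 tagged 12, beside 2.48% of the 13611 genes with a mean of at least 100 normalized counts. Gpx7 and Mgst3, 2 of the 38 (5.26%), lay below all others there, beside 1.87% of those genes. The single genes Ighm, Csf1r and Hbb-bs were also higher in the same 3 libraries, and the part of B cells, monocytes and erythroid cells in the Hmox1 values was not tested. Hmox2, the constitutive form, ranged from 1013 to 1606 normalized counts with overlapping fractions.

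**Figure D4:**
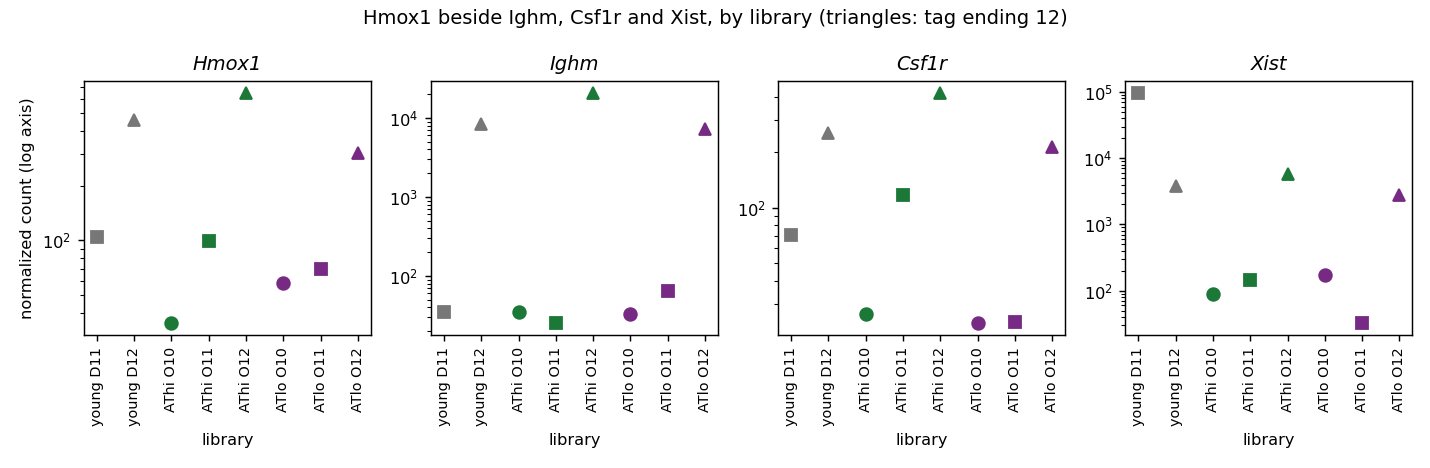
Normalized counts (log axes) of Hmox1, the B cell gene Ighm, the monocyte gene Csf1r and Xist in the 8 libraries, with triangles for the 3 libraries whose tag ends in 12. Hmox1, Ighm and Csf1r are higher in the 3 triangles than in the other 5 libraries, and Xist is highest in young D11.

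The dismutases and catalase were not called between fractions. Sod1, the cytosolic dismutase, stood at 8927 and 7731 normalized counts in young, at 8193, 9376 and 8294 in AThi, and at 9572, 10080 and 9114 in ATlo. Sod2, the mitochondrial dismutase, stood at 2363 and 1917, then 1978, 2202 and 2337, then 2409, 2556 and 2136. Cat stood at 6924 and 6624, then 6776, 5875 and 5109, then 6056, 6370 and 5436. In each of the 3 genes the fractions overlapped. Within mice, Sod1 was lower in AThi in 3 of 3 (log2 ratios of -0.22, -0.10 and -0.14), and Sod2 and Cat were lower in 2 of 3. With the mouse as a block the DESeq2 refit did not call Sod1 (adjusted p 0.35). In the authors' deposited table their log2 fold changes were -0.15 ± 0.11, -0.12 ± 0.15 and -0.01 ± 0.14 (SE), with 95% intervals that lay between -0.42 and 0.26. Park7, whose product DJ-1 is a redox-sensitive chaperone linked to NRF2 stability, was at -0.31 ± 0.19 (SE) in the authors' deposited table and was not called.

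The 4 falls stood beside a difference in cell cycle genes. Of 20 S phase genes, 17 were called lower in AThi than in ATlo in the authors' deposited table, beside 4.43% of genes, and 0 higher, beside 3.47%. Their summed level was 33435 to 42738 normalized counts in AThi, 73840 to 86481 in ATlo and 68284 and 75873 in young. Among 20 G2 and M phase genes, 18 were called lower, beside the same 4.43% of genes, with sums of 52940 to 67625 in AThi, 137353 to 158394 in ATlo and 82103 and 100821 in young. No gene of either list was at 0 in any library, and their part in the values of Txn1, Prdx1, Prdx4 and Gsr was not tested. Of the 10 HSC markers, 3 (Procr, Mecom and Hlf) were called higher in AThi in the authors' deposited table, beside 3.47% of genes.

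The second comparison set the AThi fraction of old mice against unfractionated young HSCs. Gpx8, Gpx3 and Gstm1 were higher in old AThi, and no member was called lower. In the authors' deposited table, 3 of 38 members (7.89%) were called, beside 5.04% of the 19064 genes tested (3.13% higher and 1.91% lower). The AThi and young libraries did not overlap for 14 members (36.8%), beside 28.2% of genes. The members' median log2 fold change was 0.03 in the authors' deposited table, beside 0.00 over all genes, and 22 of 38 lay within 0.3 of 0. edgeR called 1 member, Gpx8 (2.63%), beside 1.21% of genes. Leaving out the 3 libraries tagged 12 leaves D11 as the 1 young library, which is then assumed to vary like the old libraries. On that footing the DESeq2 refit called 2, Gpx8 and Gstm1, beside 3.31%.

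Gpx8 (ENSMUSG00000021760, chr13:113042753-113046410, minus strand), a membrane-bound peroxidase of the endoplasmic reticulum, showed the largest difference among the members. It stood at 12.5 and 16.9 normalized counts in young, from 12 and 16 reads, at 331, 214 and 239 in AThi, and at 384, 338 and 260 in ATlo. Every old library was more than 10 times as high as either young library, and the 2 fractions overlapped. The log2 fold change of AThi over young in the authors' deposited table was 4.15 ± 0.47 (SE), a fold of 17.8, with an adjusted p of 5.9e-16, and edgeR's adjusted p was 0.0041. It was called in every alternative run. Those that left out a young library, or the 3 libraries tagged 12 (log2 4.45), rest on 1 young library. Gpx8 overlaps Cdc20b on the opposite strand with no shared exon, and the labels do not say whether the counting used strand.

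Gstm1 was higher in AThi than in young by 0.86 ± 0.19 (SE) on the log2 scale, with an adjusted p of 3.3e-04, in the authors' deposited table. edgeR's adjusted p for the same difference was 0.066. Its copy Gstm2, from the list of further NRF2 target enzymes, stood at 76.9 and 157 normalized counts in young, at 767, 959 and 530 in AThi, and at 608, 684 and 838 in ATlo. Gstm2 was thus higher in both old fractions (log2 2.68 ± 0.38 and 2.60 ± 0.37 (SE) in the authors' deposited table), whereas Gstm1 was higher in AThi alone among the old fractions. The contrasts against young share the same 2 young libraries. Gpx3 in AThi over young had a log2 fold change of 2.77 ± 0.69 (SE) and an adjusted p of 0.0025 in the authors' deposited table. edgeR's adjusted p was 0.12, and the DESeq2 refit gave 0.096 without AThi O11 and 0.093 without young D12, which leaves 1 young library.

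Txn1 in AThi lay below both young libraries, with a log2 fold change of -0.39 ± 0.13 (SE) and an adjusted p of 0.053 in the authors' deposited table. Of 12 alternative runs 1 called it, the DESeq2 refit without AThi O11, at -0.44 and an adjusted p of 0.042. The other 11 runs did not call it. Prdx4 and Gsr, the other members whose AThi libraries lay below all young ones and which were called between fractions, had log2 fold changes of -0.47 ± 0.18 and -0.29 ± 0.18 (SE) in the authors' deposited table, with adjusted p-values of 0.12 and 0.50. Prdx1 in AThi overlapped young. Nfe2l1 lay above young in 3 of 3 AThi libraries (0.50 ± 0.18 (SE) in the authors' deposited table, adjusted p 0.094), as did Gclc (0.54 ± 0.24, adjusted p 0.23). For Nfe2l2, at 0.31 ± 0.17 (SE) in the authors' deposited table, AThi O10 lay between the young libraries.

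**Figure D5:**
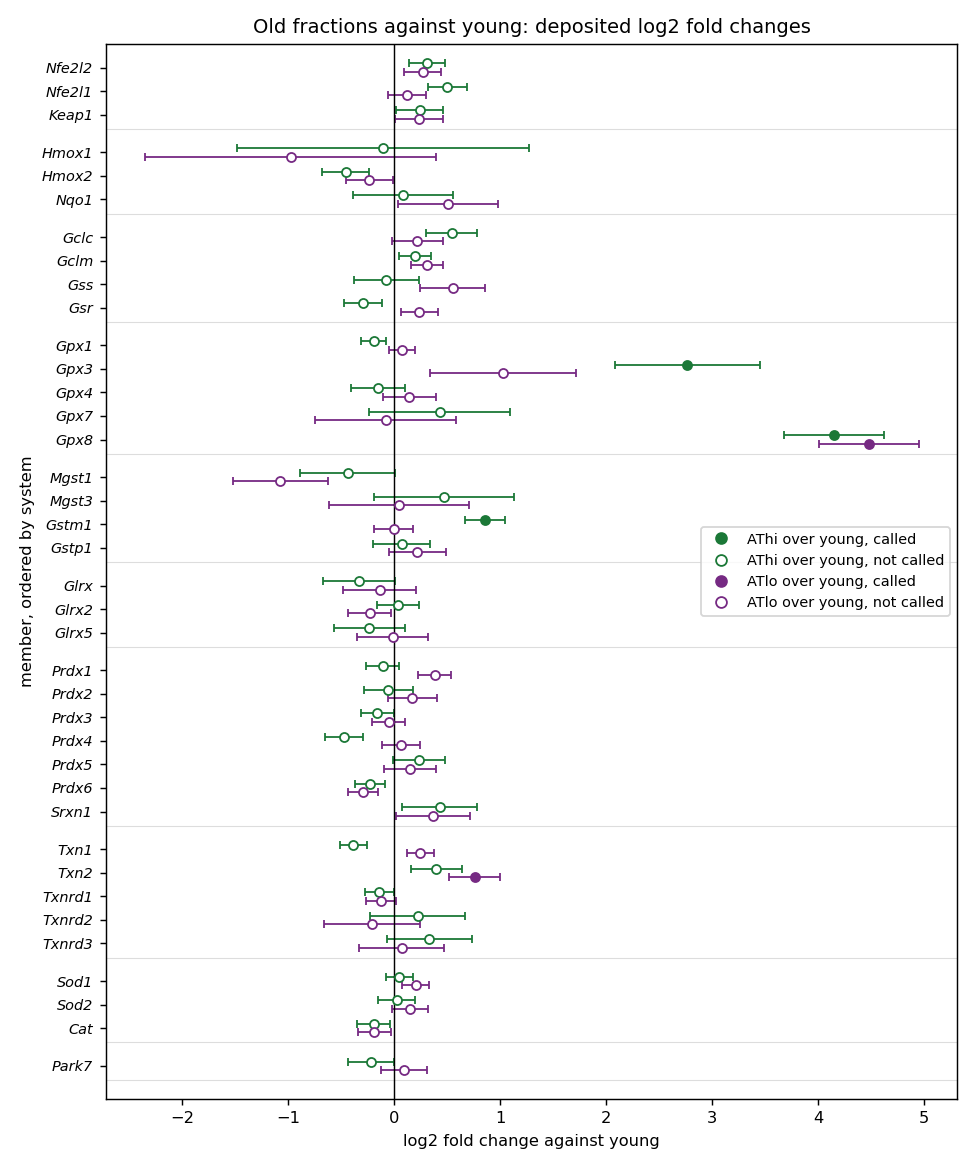
Deposited log2 fold changes with standard errors of AThi (green) and ATlo (purple) over young for the 38 members by system, with filled points for called members. Gpx8 lies above 4 for both fractions, Gpx3 and Gstm1 are called for AThi and Txn2 for ATlo; both sets share the 2 young libraries.

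The third comparison set the ATlo fraction against young. Gpx8 and Txn2 were higher in old ATlo, and no member was called lower. The authors' deposited table called 2 of 38 members (5.26%), beside 4.34% of the 18678 genes tested (2.37% higher and 1.98% lower), a share near the background. The ATlo and young libraries did not overlap for 14 members (36.8%), beside 31.4% of genes, and 11 of the 38 lay above young in every ATlo library, beside 16.1% of genes. The median log2 fold change of the members in the authors' deposited table was 0.13, beside 0.01 over all genes, and 28 of 38 lay within 0.3 of 0. edgeR called 1 member, Gpx8 (2.63%), beside 0.653% of genes. The DESeq2 refit without the 3 libraries tagged 12, with D11 as the 1 young library, also called Gpx8 alone, beside 2.62%.

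For Gpx8 the log2 fold change of ATlo over young was 4.48 ± 0.47 (SE) in the authors' deposited table, a fold of 22.3, with an adjusted p of 1.3e-18, and edgeR's adjusted p was 0.0045. For Txn2 it was 0.76 ± 0.24 (SE) with an adjusted p of 0.042 in the authors' deposited table. All 3 ATlo libraries of Txn2 lay above both young libraries, and so did all 3 AThi libraries. The Txn2 call was not kept by edgeR (adjusted p 0.24), in a refit of the 2 groups alone (0.057), or without ATlo O11 (0.24) or ATlo O12 (0.12). With 1 young library left, it was not kept without young D11 (0.33) or young D12 (0.19). Txn1 in ATlo lay above both young libraries, opposite to AThi, at 0.25 ± 0.13 (SE) with an adjusted p of 0.35 in the authors' deposited table. Prdx1 had 0.38 ± 0.15 (SE) and an adjusted p of 0.16 there. Of 12 alternative runs 1 called Prdx1, the DESeq2 refit without ATlo O10 (log2 0.50, adjusted p 0.021), and 11 did not. Gstm1 in ATlo was at -0.01 ± 0.19 (SE) against young in the authors' deposited table, with a 95% interval of -0.38 to 0.36. Mgst1 had the lowest estimate of the 38 members against young, at -1.08 ± 0.45 (SE) with an adjusted p of 0.18 in the authors' deposited table.

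Genes listed as markers of other lineages also differed between the old fractions and young, beside the Gpx8, Gpx3 and Txn2 differences. Whether HSCs themselves or other cells held these transcripts was not tested. Of 10 megakaryocyte and platelet markers tested, 4 were called higher in AThi than in young in the authors' deposited table, beside 3.13% of genes. In ATlo 7 were called higher than in young there, beside 2.37%. Their summed level was 4727 and 5206 normalized counts in young, 16721 to 20431 in AThi and 15237 to 20281 in ATlo, with Ppbp at 0 in at least 1 library. The granulocyte markers summed to 2729 and 2842 in young, 5532 to 7147 in AThi and 4104 to 6639 in ATlo, with Mpo and Lcn2 at 0 in at least 1 library. Of 7 granulocyte markers tested, 1 was called higher in AThi than in young, beside 3.13% of genes, and 1 in ATlo, beside 2.37%. Prtn3 was the marker called. Their part in the member values was not tested.

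The wider pathway was read from 4 further lists. Of 15 regulators and partners of NRF2, 3 were called higher in AThi than in ATlo in the authors' deposited table, beside 3.47% of genes, and 0 lower, beside 4.43%. They were the small MAF genes Mafg (log2 0.81 ± 0.22 (SE)) and Maff (1.24 ± 0.39), whose proteins pair with NRF2, and Bach2 (0.60 ± 0.18), which encodes a repressor that binds the same kind of element. Mafg stood at 623 and 585 normalized counts in young, at 1278, 1094 and 1032 in AThi, and at 550, 572 and 816 in ATlo, and it was also called against young (0.91 ± 0.25 (SE) in the authors' deposited table). edgeR called 0 of the 15 in any comparison.

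Of 33 further NRF2 target enzymes and transporters tested, the carbonyl reductase gene Cbr3 was called higher in AThi than in ATlo (log2 2.20 ± 0.50 (SE)) and the pentose phosphate enzyme gene Tkt lower (-0.58 ± 0.14) in the authors' deposited table, 2 genes in all beside 7.9% of genes. edgeR called neither, with adjusted p-values of 0.068 and 0.069. Cbr3 stood at 93.5 and 150 normalized counts in young, at 249, 264 and 280 in AThi, and at 81.7, 66.7 and 24.9 in ATlo, with every AThi library above all others. Against young, 3 of the 33 were called higher in each old fraction, beside 3.13% of genes for AThi and 2.37% for ATlo. They were Gstm2, Nupr1 and the biliverdin reductase gene Blvrb, and 0 were called lower, beside 1.91% and 1.98%. Nupr1 is a stress-induced gene whose product is neither an enzyme nor a transporter. It rose by 2.84 in AThi and 2.15 in ATlo on the log2 scale, and Blvrb by 1.04 and 0.92, in the authors' deposited table. edgeR called Gstm2 and Nupr1 against young in both fractions and did not call Blvrb (adjusted p 0.082 and 0.15).

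Among 31 other thiol and peroxide genes tested, Txnip, Selenop and Sesn3 were called higher in AThi than in ATlo and Tmx1 lower in the authors' deposited table, 4 in all beside 7.9% of genes. edgeR called 0 of these 4, with adjusted p-values of 0.11, 0.10, 0.090 and 0.14. Txnip, whose product binds and inhibits thioredoxin, stood at 24109 and 32506 normalized counts in young, at 37639, 43150 and 29268 in AThi, and at 23907, 24999 and 15823 in ATlo, which the authors' deposited table gave as a log2 fold change of 0.77 ± 0.20 (SE). Every AThi library of Txnip lay above every ATlo library, the opposite order to Txn1 between these fractions. Selenop, the selenium carrier, was at 0.45 ± 0.13 and Sesn3, a sestrin and known FOXO target, at 0.62 ± 0.16 (SE) in the authors' deposited table. Tmx1, a thioredoxin-like protein of the endoplasmic reticulum, was at -0.46 ± 0.15 (SE) in the same table. Against young, 3 of the 31 were called higher in AThi, beside 3.13% of genes, and 0 lower, beside 1.91%. In ATlo 2 were called higher, beside 2.37%, and 2 lower, beside 1.98%. Oxr1, an oxidation resistance gene, was called higher than in young in both fractions (log2 1.13 ± 0.14 and 0.99 ± 0.14 (SE) in the authors' deposited table), and so was Qsox1, a sulfhydryl oxidase (0.90 ± 0.24 and 1.19 ± 0.24). Chac2, which degrades glutathione, was called higher in AThi than in young (1.16 ± 0.33), and Msrb3 and Sesn3 were called lower in ATlo than in young (-2.31 ± 0.63 and -0.80 ± 0.18), all in the authors' deposited table. Of these calls against young, edgeR kept Oxr1 alone, in both fractions.

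On the side of oxidant production, 11 of 17 listed genes were tested. Xdh, the xanthine dehydrogenase gene, whose enzyme can release superoxide, was called higher in AThi than in ATlo (log2 2.32 ± 0.33 (SE)) and than in young (1.94 ± 0.37) in the authors' deposited table, and edgeR's adjusted p-values were 0.011 and 0.041. It stood at 105 and 101 normalized counts in young, at 357, 411 and 421 in AThi, and at 77.0, 97.7 and 63.0 in ATlo, so the AThi libraries lay above all others.

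The authors also deposited scores of 726 upstream regulators for AThi against ATlo. Gpx3 was the 1 of the 38 members named as a target in the authors' deposited table, under 16 regulators. The authors' deposited table scored FOXO3, a stress-responsive factor of stem cell maintenance, as activated (activation score 2.61, p of overlap 2.45e-13) and FOXO1 as inhibited (-2.56, p 5.43e-08). Gpx3 was 1 of 33 targets listed for FOXO3 and 1 of 30 for FOXO1. SECISBP2 and SEPHS1, both needed to make selenoproteins, were listed in the authors' deposited table with Gpx3 as their 1 target (p of overlap 0.0201 each) and no predicted state. The Gpx3 difference between fractions was called in 5 of 15 alternative runs and not in the other 10, among them the run without AThi O11.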

How the data were processed

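RNA had been measured by bulk sequencing (paired ends of 50 bases, target 40 M reads) in 8 libraries. The submitters' processing notes name STAR, featureCounts, DESeq2, FastQC, MultiQC and the build GRCm38, without versions; the annotation used and the strandedness of counting are not given. The authors deposited, for 3 contrasts, per-gene log2 fold changes and standard errors, the Wald statistic as a score, raw and adjusted p-values, and 8 columns of normalized signal, the same in all 3 tables. A further deposited table gives an activation score and p-value per upstream regulator; which program made it is not stated. Ages, gates and sort days (2, with no map to libraries) are those of the labels' protocols.

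The main test was the Wald test of DESeq2 as deposited, with p-values adjusted over all genes (Benjamini-Hochberg), with a call at an adjusted p below 0.05. Column tags are not the labels' replicate numbers, so columns were matched to groups only. Each column of the deposited signal, divided by what 1 read is worth in it, came out as whole reads for 100% of values (tolerance 0.01 read). A DESeq2 1.42.0 refit on these reads and edgeR 4.0.16 (quasi-likelihood test, TMM factors) were run in R 4.3.3 as alternatives, with and without the mouse as a block, other scaling and filters, each library left out in turn, and, chosen after seeing the data, without the libraries tagged 12. Fits were tested on simulated data. Other steps used Python 3.11.15, numpy 2.4.6, pandas 2.3.3 and matplotlib 3.10.9, and exon lengths and gene positions came from GENCODE M21. Per the labels, the fractions of a mouse are paired, and same-tag fractions were taken as the pairs. Deviations from the group means over 13611 genes correlated at 0.21, 0.16 and 0.37 for libraries with the same tag and at -0.23 to 0.03 otherwise. Deviations cancel within a group, so higher values for same-tag libraries lower the others. Young D12, from another mouse, also stood apart with the libraries tagged 12. The correlations therefore cannot tell a shared mouse from another feature shared by a tag. Depth and intervals do not cover amplification, because without molecular identifiers reads are not independent molecules.

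The members, the lists and the rule for named genes (members called in any contrast and a set of pathway genes in full, list genes where called) were chosen with earlier results of these data known, so list counts are descriptions. A further gene of the oxidant list is not reported here.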

Additional observations from a re-analysis of the deposited data

Results flagged for a closer look

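For 6 members the change against young differed between the AThi and the ATlo fraction. Both changes are taken against the same 2 young libraries, so their difference is the AThi against ATlo contrast itself, and its test in the authors' deposited table is that of the difference. On the log2 scale the change in AThi minus that in ATlo was -0.63 for Txn1, -0.49 for Prdx1, -0.54 for Prdx4 and -0.53 for Gsr, and 0.87 for Gstm1 and 1.74 for Gpx3, in the authors' deposited table. For Txn1, Prdx1, Prdx4 and Gsr the deposited estimate against young was below 0 in AThi and above 0 in ATlo. Under the alternatives that of Prdx1 in AThi ran from -0.23 to 0.05 and that of Prdx4 in ATlo from -0.05 to 0.20, so neither sign was stable. For Gpx3 both estimates were above 0, and for Gstm1 ATlo was at -0.01.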

How the results depend on the processing

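In AThi against ATlo, where 6 members were called, edgeR, edgeR with the replicate block and edgeR without a filter on low counts each called 2, as did the DESeq2 refit without the libraries tagged 12. Leaving out 1 library at a time gave 2 to 5 calls, with 2 without ATlo O11 and 3 without AThi O11. With the mouse as a replicate block DESeq2 again called 6, with Gpx1 gained and Gpx3 lost, and the block changed no other call of DESeq2. In AThi against young, with 3 called, edgeR with or without the filter called 1, and leaving out 1 library gave 2 to 3. In ATlo against young, with 2 called, the fit of the 2 groups alone, edgeR with or without the filter and the fit without the libraries tagged 12 each called 1, and leaving out 1 library gave 1 to 3. No call changed sign in the contrast in which it was made. Fits against young without a young library, or without the libraries tagged 12, rest on 1 young library that is assumed to vary like the old ones. Over all genes edgeR called 280, 240 and 130 where the deposited test called 1414, 961 and 811, and 60 of the 280 were higher in AThi, against 621 of the 1414. The cause of these differences was not tested. The 95% interval of Hmox1 between fractions ran from -1.54 to 3.28, so its direction was not settled, whereas that of Txn1 ran from -0.86 to -0.41 with the same libraries.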
